A study of Mus musculus with 8 samples.

Results

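The 7 genes described here are 4 CXC chemokine ligands that attract neutrophils (Cxcl1, Cxcl2, Cxcl3 and Cxcl5), their receptor Cxcr2, the cytokine Csf3 (granulocyte colony-stimulating factor, G-CSF) and its receptor Csf3r. They were taken by symbol and not by a cut on their values, though earlier results of these data were known when they were chosen. All 7 were found among the 55418 gene symbols of the table. The study sequenced total RNA of distal colon in 8 libraries, 2 for each of 4 groups, all from mice of the C57BL/6 strain at 8 to 10 weeks of age. The groups were NAIL-ΔNFκB mice after DSS, NAIL-ΔNFκB mice without DSS, wild-type (WT) mice after DSS and WT mice without DSS. DSS is dextran sulfate sodium, which injures the colon lining. It was given at 3% for 4 days, and the mice then drank normal water for another 4 days. NAIL-ΔNFκB, written ΔNFκB from here on, is a mouse line altered at the locus of NAIL, which makes a long noncoding RNA; which bases were altered, and in how many founder lines, is not stated in the labels.

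Cxcl1, Cxcl2, Cxcl3 and Cxcl5 are small secreted proteins of the group that carries a glutamate-leucine-arginine motif before the CXC cysteines, and in the mouse they draw neutrophils out of the blood through Cxcr2, a G protein-coupled receptor on the neutrophil surface. G-CSF acts on Csf3r, which is carried mainly by the neutrophil lineage, and drives the making of neutrophils in the bone marrow and their release. In an injured colon the ligands and G-CSF are made by epithelial, stromal and myeloid cells, largely under NF-κB and interleukin-17 signals, while the receptors enter the tissue mostly with the neutrophils themselves.

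The 4 ligand genes lie in one cluster on chromosome 5 (GRCm38, mm10; positions from GENCODE M21), all on the plus strand. Cxcl5 (ENSMUSG00000029371) spans chr5:90759360-90761624, Cxcl3 (ENSMUSG00000029379) chr5:90786103-90789600, Cxcl1 (ENSMUSG00000029380) chr5:90891241-90893115 and Cxcl2 (ENSMUSG00000058427) chr5:90903871-90905938. Cxcr2 (ENSMUSG00000026180) lies at chr1:74153989-74161246, Csf3 (ENSMUSG00000038067) at chr11:98701263-98703629 and Csf3r (ENSMUSG00000028859) at chr4:126024550-126044440.

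RefSeq promoter windows (GRCm38.p6, 250 bases before to 50 bases after the start) were at hand for 5 of the 7 genes, namely Cxcl1, Cxcl2, Cxcl3, Cxcr2 and Csf3r. The 3 shown are those that hold the NF-κB consensus, a motif searched by its name on both strands; it occurred in 1480 of 32851 such windows (4.51%). In each of the 3, a run of 11 bases matched on both strands in overlapping positions, and this run is in capitals. Each line gives the 100 bases before the start, plus strand, 5′ to 3′, for Cxcl1 at chr5:90891141-90891240, Cxcl2 at chr5:90903771-90903870 and Cxcl3 at chr5:90786001-90786100.
Cxcl1: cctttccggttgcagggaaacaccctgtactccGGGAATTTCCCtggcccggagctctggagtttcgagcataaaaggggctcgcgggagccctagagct
Cxcl2: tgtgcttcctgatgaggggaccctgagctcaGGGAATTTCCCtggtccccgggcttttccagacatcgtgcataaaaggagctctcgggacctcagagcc
Cxcl3: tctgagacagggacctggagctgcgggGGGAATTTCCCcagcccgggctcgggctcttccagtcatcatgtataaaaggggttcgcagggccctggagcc
The run lies 67 to 57 bases before the start of Cxcl1, 69 to 59 before that of Cxcl2 and 73 to 63 before that of Cxcl3. The start used for these stretches is the more upstream of the GENCODE and RefSeq starts. For Cxcl3 this is the RefSeq start, which lies upstream of the GENCODE start given above. With the runs aligned, 100 bases of the windows were compared, 50 before the first base of the run and 50 from it on, which reach past the printed stretches. Compared position by position without gaps, 45% were identical between Cxcl1 and Cxcl2, 45% between Cxcl1 and Cxcl3 and 37% between Cxcl2 and Cxcl3. The run of 11 bases on which the windows were aligned is counted in these values. The distance from run to start differs among the 3 genes, and no gap was allowed for it. The values therefore do not rank the 3 promoters by likeness. The TATA box, searched as TATAAA on both strands, was found for Cxcl3 alone of the 5 genes and in 13.6% of all windows. These matches describe letters in a window and are not measured binding sites.

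The libraries held 9229861 to 16935961 reads assigned to genes. Levels are CPM, the reads of a gene per 1000000 reads of its library after scaling by TMM factors, and 3 reads in a library, taken as the floor of detection, were worth 0.201 to 0.309 CPM. Markers of colon epithelium summed to 6871 to 21798 CPM, and the distal colon genes Hoxb13 and Hoxd13 were read in every library. After DSS both Hox genes were higher in ΔNFκB than in WT mice at an adjusted p under 0.05 in the edgeR quasi-likelihood test. Of all genes tested 8.32% were. The Hox genes summed to 292 to 304 CPM in ΔNFκB DSS mice, against 175 to 232 CPM in WT DSS mice. They therefore do not show that the DSS samples match in make-up. Gm16685, the annotated gene taken here as NAIL, had 55.1 and 86 reads after DSS in ΔNFκB mice, against 57 and 126 reads after DSS in WT mice; the genotype difference was −0.24 ± 0.52 (log2, SE, adjusted p = 0.782), so its level does not check the genotype labels. It shares 105 exon bases with Il7 on the other strand, and whether the reads were counted by strand is not given in the sources used here. Transcripts of the Y chromosome gave more than 5 CPM in 3 libraries, both untreated ΔNFκB libraries and untreated WT replicate 2. The other 5 libraries, including all 4 after DSS, had at most 0.183 CPM, so in ΔNFκB mice sex and DSS cannot be told apart.

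Without DSS the 7 genes were low in both genotypes. Cxcl5 had 1.42 and 2.20 CPM in untreated ΔNFκB mice and 1.04 and 3.89 CPM in untreated WT mice. Cxcl3 had no read in any of the 4 untreated libraries, which allows a level of up to 0.201 to 0.244 CPM, and Csf3 had a single read in all 4. None of the 7 genes differed between the genotypes without DSS at an adjusted p under 0.05 in the edgeR quasi-likelihood test, and none had an unadjusted p under 0.05; among all 17522 genes tested 0.388% were called in either direction. DESeq2 and limma-voom also called none. The difference between untreated ΔNFκB and WT mice was −0.49 ± 0.62 for Cxcl5 (adjusted p = 0.740), −0.48 ± 1.21 for Cxcl1 (adjusted p = 0.880), 0.90 ± 1.03 for Cxcr2 (adjusted p = 0.710) and −0.72 ± 0.74 for Csf3r (adjusted p = 0.675; all log2, SE). These genes had 4 to 71 reads per untreated group, and differences of this size were not detectable at this depth.

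**Figure D1:**
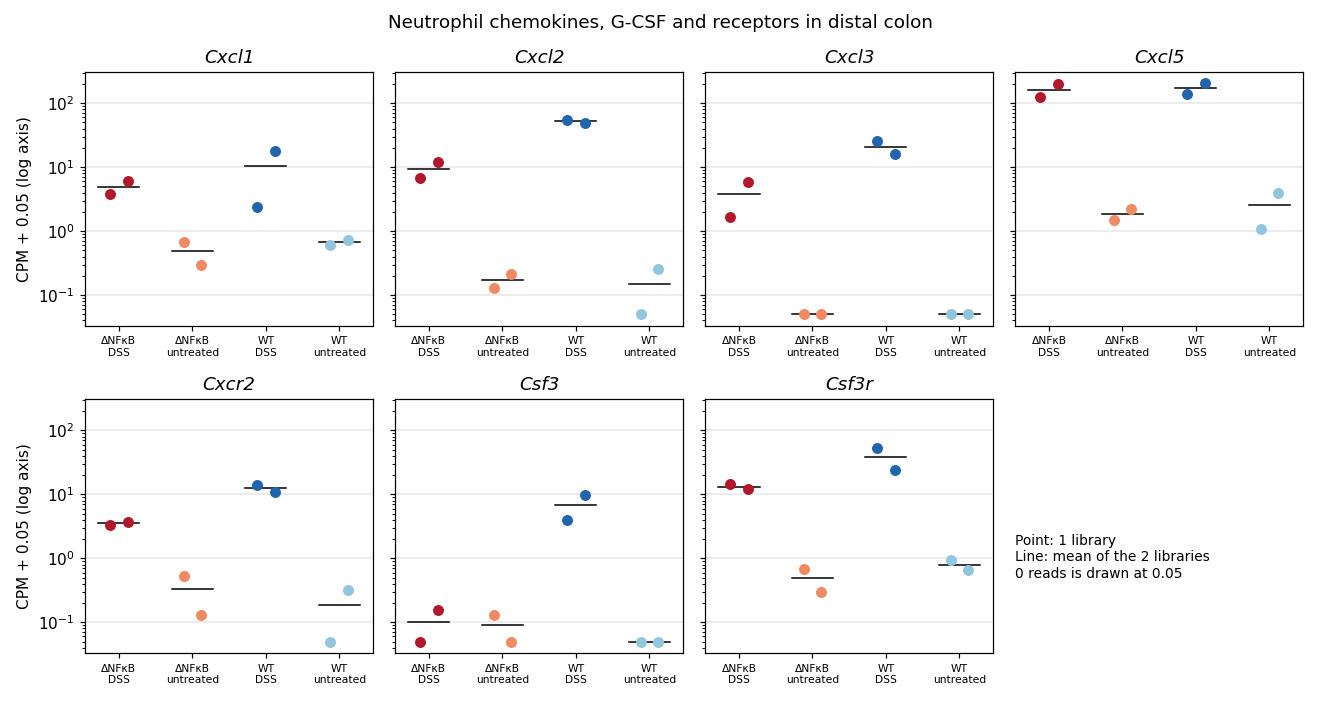
Level of each of the 7 genes in each of the 8 libraries, in TMM-scaled CPM plus 0.05 on a log axis; points are libraries, lines are means of 2 libraries, and a library with 0 reads is drawn at 0.05. In WT mice each gene is higher in both DSS libraries than in both untreated ones, the DSS libraries of the genotypes overlap for Cxcl5 and Cxcl1, and Csf3 stays at 0 or 1 read in ΔNFκB mice.

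After DSS, 6 of the 7 genes were called higher in ΔNFκB mice than in untreated ΔNFκB mice and 0 lower, where 16.2% of all genes tested were called higher and 19.2% lower. In WT mice 7 of the 7 were called higher after DSS and 0 lower, where 17.2% of all genes were called higher and 18.8% lower. The median log2 change of the 7 genes was 4.87 in ΔNFκB mice, against −0.04 over all genes, and 6.33 in WT mice, against 0.00 over all genes. With genes absent without DSS placed at their lower bound the medians were 4.87 in ΔNFκB mice and 6.08 in WT mice. The genes called were the same in both genotypes except for Csf3, called in WT mice alone. With sex as a term 4 of the 7 were called in ΔNFκB mice and 6 in WT mice. Cxcl1 lost its call in both genotypes and Cxcl3 in ΔNFκB mice. The fitted log2 change in ΔNFκB mice was 8.29 for Cxcr2, against 3.59 without that term, and 10.46 for Cxcl2, against 6.15. Only the untreated WT group held libraries with and without Y transcripts, so this pair alone sets the sex term. In this pair Cxcr2 had 0 and 4 reads and Cxcl2 0 and 3. The values with the term therefore do not separate DSS from sex in ΔNFκB mice. Within the female WT libraries, that is without WT untreated replicate 2, 6 of the 7 were called, all but Cxcl1.

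Between the genotypes after DSS, 5 of the 7 genes were called lower in ΔNFκB mice than in WT mice and 0 higher, where 11.7% of all genes were called lower and 8.32% higher. The 5 were Cxcl2, Cxcl3, Cxcr2, Csf3 and Csf3r; Cxcl1 and Cxcl5 were not called. The median log2 difference of the 7 was −1.84, against 0.03 over all genes. This comparison and the DSS effect in each genotype share the DSS libraries, so their values are given side by side and not as separate lines of evidence. In a bulk sample, fewer cells of a type and less RNA per cell cannot be told apart. The 5 calls rest on groups of 2: the count of called genes was 2 without ΔNFκB DSS replicate 1, and 3 without ΔNFκB DSS replicate 2, without WT DSS replicate 1 or without WT DSS replicate 2. Cxcl2 and Csf3 were called in each of those 4 cases.

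Cxcl5, also known as LIX in the mouse, had the highest level per kilobase of the 7 genes after DSS, and its level was not called different between the genotypes. It had 125 and 201 CPM after DSS in ΔNFκB mice and 1.42 and 2.20 CPM in untreated ΔNFκB mice, and 141 and 204 CPM after DSS in WT mice and 1.04 and 3.89 CPM in untreated WT mice. The DSS libraries stood far above the untreated ones in each genotype, and those of the 2 genotypes overlapped. The log2 change with DSS was 6.49 ± 0.51 in ΔNFκB mice (SE, adjusted p = 0.000159) and 6.08 ± 0.48 in WT mice (adjusted p = 0.000168). After DSS the difference between ΔNFκB and WT mice was −0.08 ± 0.35 (adjusted p = 0.889), with a 95% interval of −0.89 to 0.73, so a difference of up to about that size in either direction was not detectable here. Per kilobase of coding-transcript exon, Cxcl5 averaged 103 ± 34.2 CPM per kb in ΔNFκB DSS mice and 109 ± 28.6 CPM per kb in WT DSS mice (SD, n = 2 each).

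Cxcl2, or MIP-2, a ligand made in quantity by activated macrophages and neutrophils, was lower in ΔNFκB mice after DSS. It had 66 and 115 reads (6.76 and 11.9 CPM) after DSS in ΔNFκB mice and 1 and 2 reads in untreated ΔNFκB mice. In WT mice it had 558.5 and 543 reads (53.9 and 49.7 CPM) after DSS and 0 and 3 reads without DSS. The 2 WT DSS libraries agreed closely and lay above both ΔNFκB DSS libraries, which in turn lay above every untreated library. Scaled for depth, Cxcl2 was 77.4-fold higher with DSS in ΔNFκB mice (95% exact counting interval 26.1 to 379, adjusted p = 0.000288) and 473-fold higher in WT mice (162 to 2298, adjusted p = 5.27e-05). Its level after DSS was lower in ΔNFκB than in WT mice by a log2 difference of −2.48 ± 0.31 (SE, adjusted p = 0.00318), and this was called under all 18 other settings tried, with adjusted p of at most 0.0250.

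Cxcl3, a close relative of Cxcl2, gave 16 and 57 reads (1.64 and 5.87 CPM) after DSS in ΔNFκB mice and 262 and 173 reads (25.3 and 15.8 CPM) after DSS in WT mice, against 0 reads in both untreated groups. The DSS groups did not overlap, but the 2 ΔNFκB libraries lay far apart from each other. With the DSS reads as counted and 3 reads over the group as the floor, Cxcl3 was at least 31.2-fold higher with DSS in ΔNFκB mice (adjusted p = 0.00591). In WT mice it was at least 187-fold higher (adjusted p = 0.00140). After DSS it was lower in ΔNFκB mice than in WT mice by −2.45 ± 0.55 (log2, SE, adjusted p = 0.0290). That call was lost without ΔNFκB DSS replicate 1 (adjusted p = 0.0630), without WT DSS replicate 1 (adjusted p = 0.128) and without WT DSS replicate 2 (adjusted p = 0.0846). Cxcl2 shares 5.84% of its 50-base words with Cxcl3, and Cxcl3 shares 4.29% of its own with other genes, Cxcl2 among them, so a small part of the reads of each could have been split between the pair.

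Cxcl1, or KC, a ligand made by many cell types, varied most between the 2 WT DSS libraries. It had 37 and 58 reads (3.79 and 5.98 CPM) after DSS in ΔNFκB mice and 8 and 3 reads (0.631 and 0.244 CPM) in untreated ΔNFκB mice. In WT mice it had 24 and 198 reads (2.32 and 18.1 CPM) after DSS and 7 and 10 reads (0.559 and 0.671 CPM) without DSS. Each DSS group lay above its untreated group, and the 2 ΔNFκB DSS libraries lay between the 2 WT DSS libraries. The log2 change with DSS was 3.44 ± 1.0 in ΔNFκB mice (SE, adjusted p = 0.0292) and 4.03 ± 0.92 in WT mice (adjusted p = 0.0116). In ΔNFκB mice this call was lost when any of the 4 ΔNFκB libraries was left out (adjusted p = 0.0592 to 0.138). In WT mice it was lost without WT DSS replicate 2, where the log2 change was 1.88 (adjusted p = 0.0620), and without WT untreated replicate 1 (0.0514) or 2 (0.0577, adjusted p). The genotype difference after DSS was −1.07 ± 0.75 (adjusted p = 0.344, 95% interval −2.80 to 0.66); it was −1.88 (adjusted p = 0.0324) without WT DSS replicate 1 and 1.08 (adjusted p = 0.274) without WT DSS replicate 2, so the direction depended on which WT DSS library was kept.

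Cxcr2, the receptor for all 4 ligands, had 32 and 36 reads (3.28 and 3.71 CPM) after DSS in ΔNFκB mice and 6 and 1 reads in untreated ΔNFκB mice, and 147 and 118 reads (14.2 and 10.8 CPM) after DSS in WT mice and 0 and 4 reads in untreated WT mice. The 4 DSS libraries fell into non-overlapping pairs by genotype, with a gap wider than the spread within either pair. The log2 change with DSS was 3.59 ± 0.67 in ΔNFκB mice (SE, adjusted p = 0.00465) and 6.33 ± 0.69 in WT mice (adjusted p = 0.000522). After DSS, Cxcr2 was lower in ΔNFκB than in WT mice by −1.84 ± 0.47 (log2, SE, adjusted p = 0.0306), which was lost when any of the 4 DSS libraries was left out (adjusted p = 0.112 to 0.158). All 4 untreated WT reads came from replicate 2. Cxcr1, the other receptor of this kind, had at most 4 reads in a library and was not tested.

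Csf3 was the member with the sharpest contrast. It had 0 and 1 read after DSS in ΔNFκB mice and 1 and 0 reads in untreated ΔNFκB mice, and 41 and 105 reads (3.96 and 9.61 CPM) after DSS in WT mice and 0 reads in both untreated WT libraries. Only the WT DSS libraries rose above the floor of 3 reads. With the WT DSS reads as counted and 3 reads over the group as the floor, Csf3 was at least 62.8-fold higher with DSS (adjusted p = 0.00133). In ΔNFκB mice both groups were under the floor and no fold is given (adjusted p = 0.923). After DSS there was 1 read over both ΔNFκB libraries, against 146 over both WT libraries, a level 133.6-fold lower in ΔNFκB mice (95% exact counting interval 23.6 to 5311, adjusted p = 0.00523). Csf3 was called in this comparison under all 18 other settings, with adjusted p of at most 0.0499.

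Csf3r, the receptor through which G-CSF acts, was read well in both genotypes after DSS. It had 140 and 117.25 reads (14.3 and 12.1 CPM) after DSS in ΔNFκB mice and 8 and 3 reads in untreated ΔNFκB mice, and 552 and 261 reads (53.3 and 23.9 CPM) after DSS in WT mice and 11 and 9 reads in untreated WT mice. The ΔNFκB DSS pair was tight, and both its libraries lay under the lower WT DSS library. The log2 change with DSS was 4.87 ± 0.54 in ΔNFκB mice (SE, adjusted p = 0.000544) and 5.70 ± 0.49 in WT mice (adjusted p = 0.000211). After DSS it was lower in ΔNFκB than in WT mice by −1.55 ± 0.37 (log2, SE, adjusted p = 0.0235). Without WT DSS replicate 1 the difference was −0.84 (adjusted p = 0.142), and the call was also lost without ΔNFκB DSS replicate 1 (adjusted p = 0.0848) and without ΔNFκB DSS replicate 2 (adjusted p = 0.154). Csf3r shares 10.7% and Cxcr2 6.68% of their 50-base words with other genes.

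**Figure D2:**
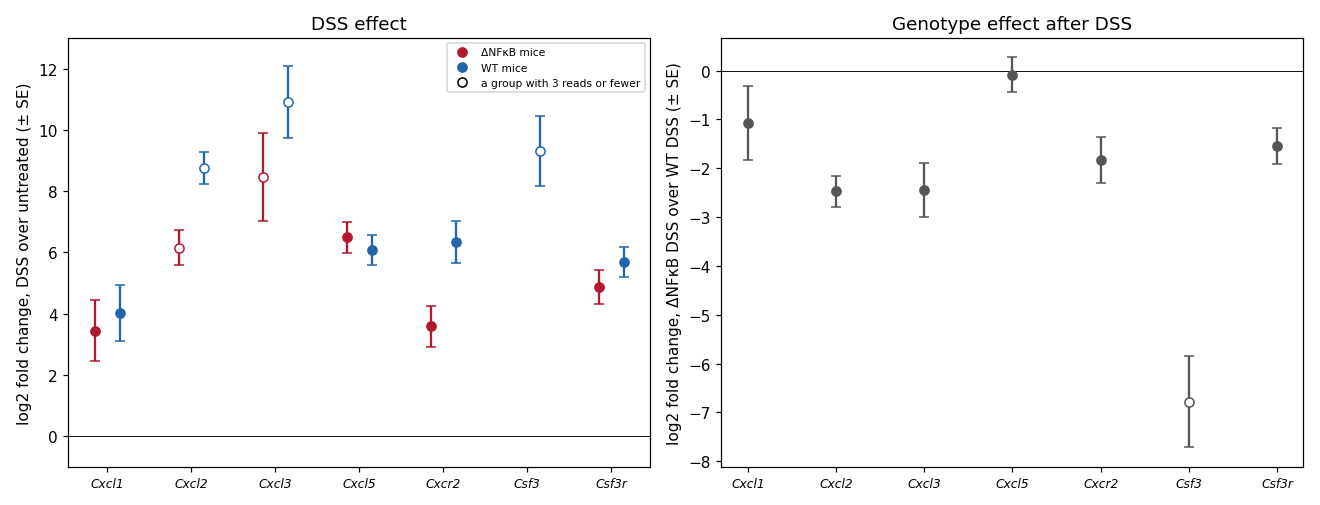
Left, log2 fold change of DSS over untreated for each gene in ΔNFκB and WT mice; right, log2 fold change of ΔNFκB DSS over WT DSS; bars are SE from the edgeR fit, and open points mark comparisons in which a group had 3 reads or fewer, whose fitted size depends on the prior count. Csf3 in ΔNFκB mice is not drawn because both groups had 1 read. On the right Cxcl5 sits at −0.08 and Csf3 far under the others.

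Whether the DSS response itself differed between the genotypes was tested as the difference of the 2 DSS effects, ΔNFκB minus WT. None of the 7 genes was called by edgeR, 2 had an unadjusted p under 0.05, and 17.7% of all genes tested were called in either direction. The 2 were Cxcr2, at −2.74 ± 1.16 (log2, SE, adjusted p = 0.133), and Csf3 (adjusted p = 0.112). DESeq2 and the edgeR fit without a count filter each called 1 gene, Csf3, with adjusted p of 0.0138 and 0.0472. For Cxcl5 the difference was 0.41 ± 0.72 (adjusted p = 0.710), with a 95% interval of −1.23 to 2.05, for Csf3r −0.83 ± 0.87 (adjusted p = 0.529), for Cxcl1 −0.59 ± 1.48 (adjusted p = 0.801), and for Cxcl2 the adjusted p was 0.217. Cxcl3 has no usable estimate because it had no reads in either untreated group. The near absence of reads without DSS limits this test.

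Per kilobase of coding-transcript exon, levels can be set beside each other across genes. After DSS in ΔNFκB mice the order was Cxcl5 (103 ± 34.2 CPM per kb), Cxcl1 (5.12 ± 1.62), Cxcl2 (5.01 ± 1.94), Csf3r (3.77 ± 0.456), Cxcl3 (3.70 ± 2.95), Cxcr2 (1.15 ± 0.100) and Csf3 (0.0365 ± 0.0516), each with SD and n = 2. From Cxcl1 down to Cxcr2 these neighbours did not differ beyond their spread (mean ± SD). The order depends on the length used: with the exons of all annotated transcripts, a length added after seeing the data, it was Cxcl5 (87.4 ± 28.9 CPM per kb), Cxcl2 (4.50 ± 1.74), Csf3r (3.66 ± 0.443), Cxcl1 (2.60 ± 0.825), Cxcr2 (1.15 ± 0.100), Cxcl3 (1.07 ± 0.856) and Csf3. After DSS in WT mice the order was Cxcl5 (109 ± 28.6 CPM per kb), Cxcl2 (27.9 ± 1.602), Cxcl3 (20.2 ± 6.58), Csf3r (11.01 ± 5.93), Cxcl1 (10.7 ± 11.7), Csf3 (4.80 ± 2.83) and Cxcr2 (4.10 ± 0.787). In WT mice Cxcl5 stood clear of the rest, while from Cxcl2 down to Cxcr2 neighbours did not differ beyond their spread (mean ± SD). With the exons of all annotated transcripts Cxcl5 (92.5 ± 24.2 CPM per kb) and Cxcl2 (25.1 ± 1.44) still came first, and Cxcl3 (5.88 ± 1.91) came after Csf3r (10.7 ± 5.76).

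The make-up of the ligand pool is given by library, without a test. Of the summed CPM per kb of the 4 ligands, Cxcl5 took 89.6% and 87.4% in ΔNFκB DSS mice, against 61.3% and 67.9% in WT DSS mice. Cxcl2 took 4.11% and 4.37% in ΔNFκB DSS mice, against 19.9% and 14.0% in WT DSS mice, and Cxcl3 1.83% and 3.96%, against 17.1% and 8.16%. With the exons of all annotated transcripts as length, Cxcl5 took 92.1% and 91.1% in ΔNFκB DSS mice, against 68.6% and 74.1% in WT DSS mice, Cxcl2 4.50% and 4.84%, against 23.7% and 16.3%, and Cxcl3 0.645% and 1.42%, against 6.58% and 3.06%. With either length the genotypes did not overlap in any of these 3 shares. The shares of a library add up to a fixed total, so lower shares of Cxcl2 and Cxcl3 raise that of Cxcl5. The 3 shares are therefore not separate observations, and they restate the levels given above. By coding-transcript length, the ΔNFκB DSS shares of Cxcl1, 4.50% and 4.30%, lay between the WT DSS shares of 1.67% and 9.96%. With 2 libraries against 2 an exact permutation test cannot go under p = 0.333, so no test is given. In reads, which need no gene length, there were 5.42 and 5.90 Cxcl2 reads per 100 Cxcl5 reads in ΔNFκB DSS mice, against 38.4 and 24.3 in WT DSS mice, and 1.31 and 2.92 Cxcl3 reads per 100 Cxcl5 reads, against 18.0 and 7.76. The summed level of the 4 ligands overlapped slightly: 137 and 225 CPM in ΔNFκB DSS mice, against 222 and 288 CPM in WT DSS mice.

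**Figure D3:**
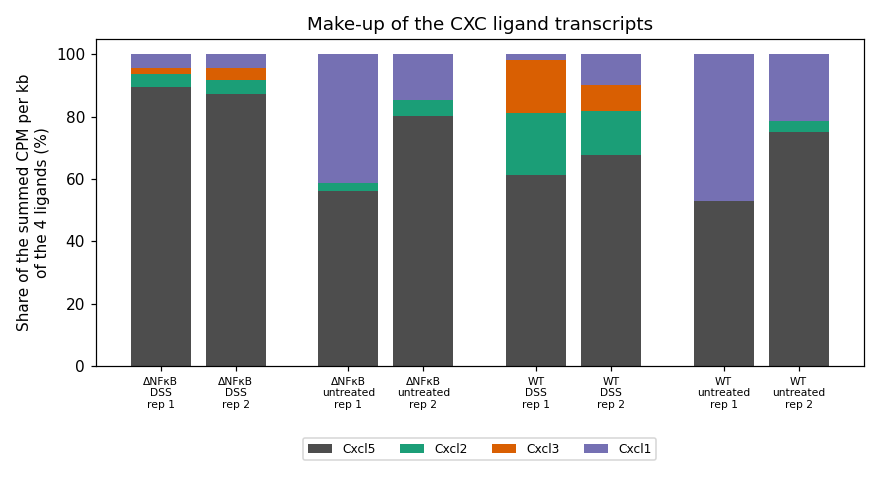
Share of each ligand in the summed CPM per kb of Cxcl1, Cxcl2, Cxcl3 and Cxcl5, in percent, one stacked bar per library. Cxcl5 makes up 87.4% to 89.6% of the bar in ΔNFκB DSS libraries and 61.3% to 67.9% in WT DSS libraries; untreated bars rest on very few reads.

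From Cxcl5 to Cxcl2 the ligand cluster spans 146.6 kb and holds 11 annotated genes, 7 of them protein-coding. Pf4, platelet factor 4, lies between Cxcl5 and Cxcl3 and was not called: its log2 change with DSS was −1.28 ± 0.55 in ΔNFκB mice (SE, adjusted p = 0.105) and −0.08 ± 0.49 in WT mice (adjusted p = 0.908), and it differed by −1.36 ± 0.55 between ΔNFκB and WT mice after DSS (adjusted p = 0.118). Ppbp, pro-platelet basic protein, had at most 15 reads and was not tested, and Cxcl15, lungkine, had 0 reads in all 8 libraries. Counted from the start of Cxcl5, Cxcl3 starts at 26.7 kb, Cxcl1 at 131.9 kb and Cxcl2 at 144.5 kb. Cxcl2 was called lower in ΔNFκB mice after DSS and its near neighbour Cxcl1 was not, while the more distant Cxcl3 was. The estimates were −2.48 ± 0.31 for Cxcl2, −1.07 ± 0.75 for Cxcl1 and −2.45 ± 0.55 for Cxcl3 (log2, SE). Whether the genes differ from each other, or by position, was not tested.

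**Figure D4:**
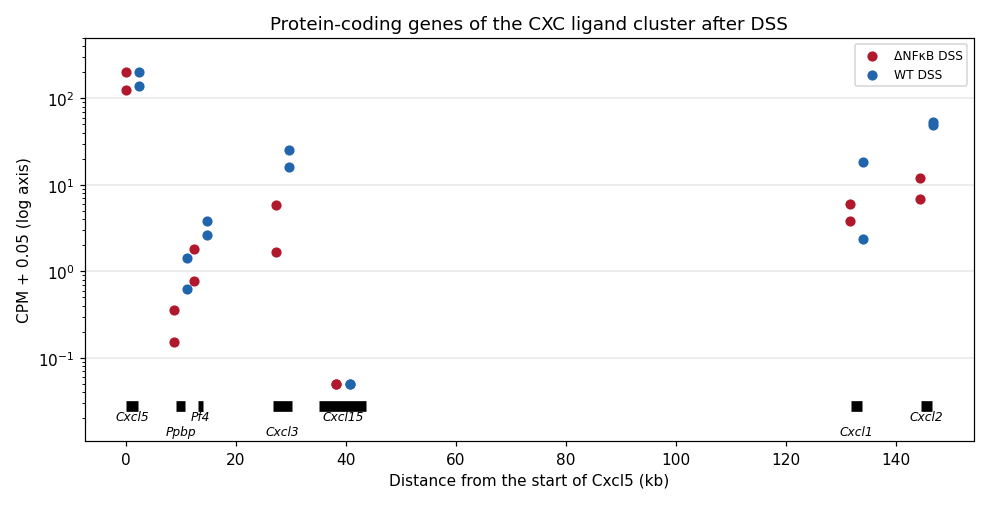
Level after DSS of the 7 protein-coding genes of the ligand cluster against the distance of each gene from the start of Cxcl5, in TMM-scaled CPM plus 0.05 on a log axis, for ΔNFκB DSS and WT DSS libraries drawn side by side at each gene (black boxes). The genotypes overlap at Cxcl5 and Cxcl1. Cxcl2 and Cxcl3 were called lower in ΔNFκB DSS mice, while Cxcl1, Cxcl5 and Pf4 were not called. Ppbp had few reads and was not tested, and Cxcl15 lies at 0 reads.

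Among themselves, the members were compared by the root mean square difference of their centred log2 CPM over the 8 libraries, where 0 is an identical profile. Cxcl2 and Cxcl3 were closest at 0.560, followed by the 2 receptors Cxcr2 and Csf3r at 0.732. Cxcl5 and Csf3 were farthest apart at 2.56. Csf3 stood at 1.51 or more from every other member. All 8 libraries enter each value, so DSS itself dominates them, and they describe likeness only.

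The same measure over 12726 other genes gave the genes most like each member. For Csf3 they were Il11 (0.458), Il6 (0.560) and Mmp3 (0.679), an interleukin-6 family cytokine, interleukin-6 and the matrix protease stromelysin-1. Il11 had 0.615 and 0.927 CPM in ΔNFκB DSS mice, against 8.69 and 35.1 CPM in WT DSS mice, and Il6 had 0.102 and 0.412 CPM, against 2.41 and 12.4 CPM. As for Csf3, both were low in both ΔNFκB DSS libraries and highest in WT DSS replicate 2. For Cxcr2 the nearest were Cd300lf (0.333), a myeloid inhibitory receptor, Il1f9 (0.432), which encodes interleukin-36 gamma, and Tarm1 (0.495); for Csf3r they were Tarm1 (0.426), Clec4e (0.515), the pattern receptor Mincle, and Il1b (0.524). Cxcl2 was most like Retnlg (0.463), a neutrophil marker, Prss22 (0.619) and Reg3b (0.635), an antimicrobial lectin, and Cxcl3 most like Reg3b (0.487), Acod1 (0.492), which makes itaconate in myeloid cells, and Clec4e (0.502). Cxcl5 was most like Myot (0.626), Sprr2h (0.729) and the interferon-induced chemokine Cxcl9 (0.730), and Cxcl1 like the interferon-induced GTPases Gbp6 (0.667), Gbp5 (0.683) and Gbp4 (0.691). The median over all candidate genes was 1.79 for Cxcl1 and 2.24 for Csf3, the 2 lowest of the 7 medians, and 3.34 for Cxcl2, the highest.

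Markers of the cells that these ligands attract moved in the same comparisons. Of 18 neutrophil markers 15 were tested. With DSS 12 were higher and 0 lower in ΔNFκB mice (median log2 change 3.33, against −0.04 over all genes), and 13 were higher and 0 lower in WT mice (5.91, against 0.00). Of all genes 16.2% were called higher and 19.2% lower in ΔNFκB mice, and 17.2% and 18.8% in WT mice. After DSS 12 were lower and 1, Cd177, was higher in ΔNFκB than in WT mice, with a median of −2.55, against 0.03. Of all genes 11.7% were called lower and 8.32% higher in that comparison. The difference of the DSS effects was called for 7 in the negative direction and for 1, Cd177, in the positive. It was called for 17.7% of all genes in either direction. S100a8, a subunit of the neutrophil protein calprotectin, had 27.5 and 25.5 CPM in ΔNFκB DSS mice, against 64.5 and 123 CPM in WT DSS mice. The markers summed to 442 to 531 CPM in ΔNFκB DSS, 142 to 203 in untreated ΔNFκB, 688 to 813 in WT DSS and 185 to 307 in untreated WT mice. Ly6g and Cd177 made up most of the sum without DSS; without this pair, chosen after the values were seen, the other 16 summed to 90.1 and 103 CPM in ΔNFκB DSS, 20.7 and 3.58 in untreated ΔNFκB, 398 and 482 in WT DSS and 3.75 and 5.90 CPM in untreated WT mice. Elane and Mpo, granule genes of neutrophil precursors, were at 0 in all 4 DSS libraries. Untreated ΔNFκB replicate 1 had reads for all 16, with Ngp at 4.57 and S100a8 at 3.00 CPM. The part of neutrophil number in the levels of Cxcr2, Csf3r and the ligands was not tested.

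Markers of other cells in the tissue are set beside the share of all genes called after DSS between ΔNFκB and WT mice, 11.7% lower and 8.32% higher. For the DSS effect, 16.2% of all genes were called higher and 19.2% lower in ΔNFκB mice, and 17.2% and 18.8% in WT mice. All 7 fibroblast markers were lower in ΔNFκB than in WT mice after DSS (median −1.83), with sums of 547 to 693 CPM in ΔNFκB DSS, 1506 to 1530.5 in untreated ΔNFκB, 1832 to 2811 in WT DSS and 1086 to 1836 CPM in untreated WT mice. With DSS 0 of the 7 were higher and 4 lower in ΔNFκB mice, and 3 were higher and 1 lower in WT mice. Of 5 endothelial markers 4 were lower in ΔNFκB DSS mice than in WT DSS mice and 0 higher (median −2.17), with sums of 22.4 to 33.0 CPM in ΔNFκB DSS mice and 116 to 149 CPM in WT DSS mice. Against untreated mice, 0 of the 5 were higher and 4 lower with DSS in ΔNFκB mice. In WT mice 3 were higher and 1 lower with DSS. Of 10 macrophage markers 2 were lower and 0 higher in ΔNFκB DSS mice than in WT DSS mice, a count too small to set apart from the shares between the genotypes. Their median was −0.55, with sums of 229 to 231 CPM in ΔNFκB DSS mice and 336 to 365 CPM in WT DSS mice. With DSS 3 were higher in ΔNFκB mice and 2 in WT mice, counts also too small to set apart from the shares of all genes. Of 10 colon epithelium markers 4 were higher and 1 lower in ΔNFκB DSS mice than in WT DSS mice (median 0.56; sums of 12242 to 13242 CPM in ΔNFκB DSS mice and 6871 to 7279 CPM in WT DSS mice). Against untreated mice, 0 of the 10 were higher and 8 lower with DSS in WT mice. In ΔNFκB mice 1 was higher and 3 were lower, counts too small to set apart from the shares of all genes. The 6 smooth muscle markers were all lower with DSS in both genotypes, and none was called between the genotypes after DSS by edgeR (1 at an unadjusted p under 0.05). Of the 7 markers of stratified squamous epithelium 3 were tested, of which 1 was higher with DSS in ΔNFκB mice and 2 in WT mice. The part of these markers in the members' differences was not tested.

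The wider pathway was described with 3 further lists. Of 8 other genes of the chemokine axis 5 were tested. None was called higher in any comparison, and after DSS 3 were lower in ΔNFκB than in WT mice: Ackr1, an atypical receptor on venules that binds neutrophil chemokines, by −3.38 ± 0.58 (log2, SE, adjusted p = 0.00758), Ackr3, which scavenges Cxcl12, by −2.11 ± 0.39 (adjusted p = 0.00982), and Cxcl12, which holds neutrophils in the bone marrow, by −1.71 ± 0.46 (adjusted p = 0.0346). The difference of the DSS effects was called for the same 3 genes, all in the negative direction, against 17.7% of all genes in either direction. The list's median difference after DSS was −1.89, against 0.03 over all genes, of which 11.7% were called lower and 8.32% higher. Both comparisons use the same 4 DSS libraries.

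Of 13 genes of the interleukin-17 and interleukin-23 axis with its mRNA decay regulators, 8 were tested. The cytokines Il17a, Il17c, Il17f, Il22 and Il23a had at most 14.5 reads in a library and were not tested. With DSS 3 of the 8 were higher and 1 lower in ΔNFκB mice (median 0.54; of all genes 16.2% were higher and 19.2% lower), and 4 were higher and 1 lower in WT mice (median 0.50; of all genes 17.2% were higher and 18.8% lower). Zc3h12a, the endonuclease Regnase-1 that degrades chemokine and cytokine mRNAs, rose with DSS by 3.00 ± 0.19 in ΔNFκB mice (log2, SE, adjusted p = 9.13e-05) and by 2.62 ± 0.19 in WT mice (adjusted p = 0.000123). Arid5a, which stabilises mRNAs such as that of interleukin-6, rose by 0.99 ± 0.26 in ΔNFκB mice (adjusted p = 0.0193) and by 2.89 ± 0.27 in WT mice (adjusted p = 0.000262), and the difference of these effects was −1.91 ± 0.37 (adjusted p = 0.0150). It had 16.0 and 14.3 CPM in ΔNFκB DSS mice, against 38.2 and 34.4 CPM in WT DSS mice. After DSS 1 of the 8 was higher and 2 were lower in ΔNFκB than in WT mice (median 0.24), against 8.32% higher and 11.7% lower of all genes, so these counts are not read as a result about the list: the receptor subunit Il17rc by 0.70 ± 0.20 (adjusted p = 0.0448), and the subunit Il17ra by −0.64 ± 0.18 (adjusted p = 0.0425) and Arid5a by −1.26 ± 0.25 (adjusted p = 0.0122).

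Of 12 other colony-stimulating factors, their receptors and G-CSF signalling genes, 10 were tested; Csf2, which encodes GM-CSF, had at most 3 reads in a library. With DSS 5 were higher and 0 lower in ΔNFκB mice (median 0.51; of all genes 16.2% were higher and 19.2% lower), and 6 were higher and 0 lower in WT mice (median 1.26; of all genes 17.2% were higher and 18.8% lower). Socs3, the feedback inhibitor of the G-CSF receptor, had 150.0 and 126 CPM in ΔNFκB DSS mice and 5.21 and 4.72 CPM in untreated ΔNFκB mice, and 151 and 157 CPM in WT DSS mice and 5.75 and 22.9 CPM in untreated WT mice. It rose with DSS by 4.79 ± 0.53 in ΔNFκB mice (log2, SE, adjusted p = 0.000541) and by 3.40 ± 0.48 in WT mice (adjusted p = 0.00159). Csf3 itself had at most 1 read in each ΔNFκB library. After DSS 2 of the 10 were lower in ΔNFκB than in WT mice and 0 higher (median −0.47; of all genes 11.7% were lower and 8.32% higher): Csf2rb, the common beta subunit of the GM-CSF, interleukin-3 and interleukin-5 receptors, by −1.39 ± 0.31 (adjusted p = 0.0200), and Cebpb, a factor of emergency neutrophil production, by −1.47 ± 0.20 (adjusted p = 0.00376). The DSS effects of Csf2ra, Csf2rb and Cebpb differed between the genotypes, by −1.34 ± 0.39, −2.33 ± 0.48 and −1.59 ± 0.29 (log2, SE; adjusted p = 0.0484, 0.0178 and 0.0133).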

How the data were processed

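Libraries were prepared from total RNA and sequenced as paired reads, per the labels' protocols. The authors deposited expected counts without normalization in 2 tables, one per gene symbol and one per Ensembl ID; 18.8% of nonzero values were not whole, and the tables (55536 lines) had 0 differing values. The submitters' processing notes name HISAT2 2.1, SAMtools 1.8, featureCounts, Subread 1.6.2 and mm10; the annotation, strand setting and handling of multimapped reads were not given in the sources used here. Symbols on several lines (115) were summed and values rounded for the tests, since the plan had assumed whole counts, which changed 1 value of Cxcl2, 4 of Cxcl5 and 1 of Csf3r.

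One edgeR (4.0.16, R 4.3.3) quasi-likelihood fit of 4 group means over all 8 libraries used TMM factors (0.882 to 1.15) and filterByExpr, which kept 17522 genes, and gave two-sided tests adjusted by Benjamini-Hochberg over all of them, with a threshold of 0.05. SE was taken as the absolute log2 change over the root of F. Nothing in the labels says that libraries are separate mice, so p measures the spread between libraries, pooled over groups (coefficient of variation 17.1%, 4 residual degrees of freedom). A fold against 0 reads is a bound from 3 reads over the group, and it leaves out the counting error of the other group. A group with 1 to 3 reads gives a ratio with a counting interval, which covers counting error only. Members, lists and rules were chosen with earlier results of these data known. The genes named are the members, up to 4 genes of a list with the smallest p, and the 3 genes most like each member (mean log2 CPM above 1). Alternatives were other scalings and filters, limma-voom (limma 3.58.1), DESeq2 (1.42.0), a replicate block, a sex term and only the groups compared. Others were omission of antigen receptor, mitochondrial and ribosomal RNA genes, and omission of each library in turn.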

Additional observations from a re-analysis of the deposited data

How the results depend on the processing

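Over 18 called gene values, 324 alternative values were computed; 302 kept direction and call, 22 lost the call and 0 reversed. With each library left out, the count of the 7 genes called between the genotypes after DSS was 2 to 3 where a DSS library was missing, against 5, and the number called in the difference of the DSS effects was 1 without a count filter and 1 with DESeq2, against 0. No value that reversed was called. With each library left out, the log2 difference between the genotypes after DSS ran from −1.88 to 1.08 for Cxcl1 and from −0.50 to 0.24 for Cxcl5 (0.22 without WT DSS replicate 2). Without DSS it ran from −1.33 to 0.0034 for Cxcl1, −1.13 to 0.76 for Cxcl5 and −0.78 to 4.68 for Cxcr2, where the last value is against a group at 0. The difference of the DSS effects ran from −1.39 to 1.56 for Cxcl1 (0.21 without ΔNFκB untreated replicate 1, and 0.096 with limma-voom, where the cause was not tested) and from −0.89 to 1.01 for Cxcl5. With a sex term, 4 of the 7 genes were called with DSS in ΔNFκB mice and 6 in WT mice, and 5 between the genotypes after DSS. Cxcl1 lost its call in both genotypes and Cxcl3 in ΔNFκB mice. The untreated WT pair alone sets that term, so it does not separate DSS from sex in ΔNFκB mice. Limma-voom lost Cxcl1 in both genotypes (adjusted p = 0.137 and 0.0858). Scaling by library totals alone moved the median of all genes to 0.27 for DSS in WT mice, −0.20 between the genotypes after DSS and −0.33 in the difference, with 4784 genes higher and 1704 lower (against 3022 and 3293), 489 and 2578 (against 1457 and 2042) and 617 and 2016 (against 1513 and 1589); the members' calls did not change.

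The replicate block called 6 members with DSS in ΔNFκB mice, 7 in WT mice, 5 between the genotypes after DSS, 0 without DSS and 0 in the difference, as without it. Same-numbered libraries correlated at −0.126 to 0.244 in their deviations, highest between the ΔNFκB DSS and untreated groups. Each value rests on a single difference between replicates per group. They therefore do not decide whether same-numbered libraries are paired. Over all genes the block left 0 calls between the genotypes without DSS, against 68, and so did a crossed block, chosen after seeing the data (r = −0.107). Other settings gave 0 to 330 there, a sex term 3343 for DSS in ΔNFκB mice against 6199, and leaving out a library as few as 3298 for DSS in WT mice (against 6315), 3373 in ΔNFκB mice, 484 between the genotypes after DSS (against 3499) and 489 in the difference (against 3102). A fit of only the groups compared was not run for the difference, which needs all 4 groups. Depth limits what can be said without DSS, where no member had more than 71 reads in a group.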
